A study of Drosophila melanogaster with 6 samples.

Results

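The 8 homeotic (Hox) genes of *Drosophila melanogaster* were followed through 6 pools of larval brains, of which 3 came from larvae grown with alcohol and 3 from control larvae. The genes were taken by name: labial (lab), proboscipedia (pb), Deformed (Dfd), Sex combs reduced (Scr), Antennapedia (Antp), Ultrabithorax (Ubx), abdominal A (abd-A) and Abdominal B (Abd-B). All 8 were found, with 42 of the 36294 listed transcripts, among 17136 gene names. The level of a gene is the FPKM (fragments per kilobase of transcript, scaled to the mapped fragments of the pool) summed over its listed transcripts.

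All larvae were wild-type Canton-S, collected in the third instar, 6 days after egg-laying, and each pool held about 30 dissected brains. The alcohol larvae were raised on cornmeal food brought to 5% alcohol, with more alcohol pipetted on its surface every day. The control food received water when it was melted and nothing afterwards, so the daily handling of the food differed between the groups as well. Poly-A RNA was sequenced from a strand-marking library in 80 cycles. Each pool is a separate dissection, but no source says whether pools came from separate cultures, so the p-values measure the spread between these pools only.

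Hox genes encode homeodomain transcription factors that give body segments their identity, and in the nervous system they set which neurons and which neural stem cells (neuroblasts) persist or die in each segment. They lie in a pair of clusters on chromosome arm 3R, in the same order as their domains along the body axis. The Antennapedia complex holds lab, pb, Dfd, Scr and Antp, which act from the head to the thorax, and the bithorax complex holds Ubx, abd-A and Abd-B, which act from the thorax to the tail. In the central nervous system lab marks a posterior part of the brain, Dfd and Scr the subesophageal region, Antp the thoracic segments, and the bithorax genes the posterior thoracic and abdominal segments of the ventral nerve cord.

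In every pool RNA of all 8 genes was found, and no gene differed between the groups beyond the spread of the pools. The highest mean level over the 6 pools was that of Scr, at 17.0 FPKM, followed by Antp at 10.8, abd-A at 5.40 and Ubx at 4.81 FPKM. Dfd, Abd-B and pb followed at 1.82, 1.24 and 1.03 FPKM, and lab was lowest at 0.653 FPKM. Within each group the pools differed from each other by more than the groups did, and they did so in opposite directions for Antp and the bithorax genes and for lab, Dfd and Scr.

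From the ratio of coverage to FPKM, the aligned megabases per library were 3257 to 4244 in control pools and 2720 to 4028 in alcohol pools. Counted as reads of 80 bases, a Hox gene sum rested on the equivalent of 55 reads (the lowest pool of lab) to 4237 reads (the highest pool of Scr). Neuronal (4 of 4), glial (1 of 1) and neuroblast (4 of 4) markers were expressed in every pool, with none of them listed at 0. So were markers of tissues other than brain: summed salivary gland markers (Sgs3, Sgs7, Sgs8 and ng1) ran from 10200 to 41400 FPKM in control pools and from 21300 to 31200 FPKM in alcohol pools, and 1 of the 4 was called higher with alcohol. The 4 muscle markers summed to 38.2 to 317 FPKM in control pools and 67.4 to 243 FPKM in alcohol pools, and control replicate 1 had the highest value of all pools for 3 of the 4. All 4 were called higher with alcohol in the fit described below, where 1.36 percent of all gene sums were called, but none of the 4 without its covariate. The 5 fat body markers summed to 1910 to 5760 FPKM in control pools and 562 to 3100 FPKM in alcohol pools, and 1 of 5 was called lower (2 of 5 without the covariate). In such mixed tissue, fewer cells of a type and less RNA per cell cannot be told apart.

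**Figure D1:**
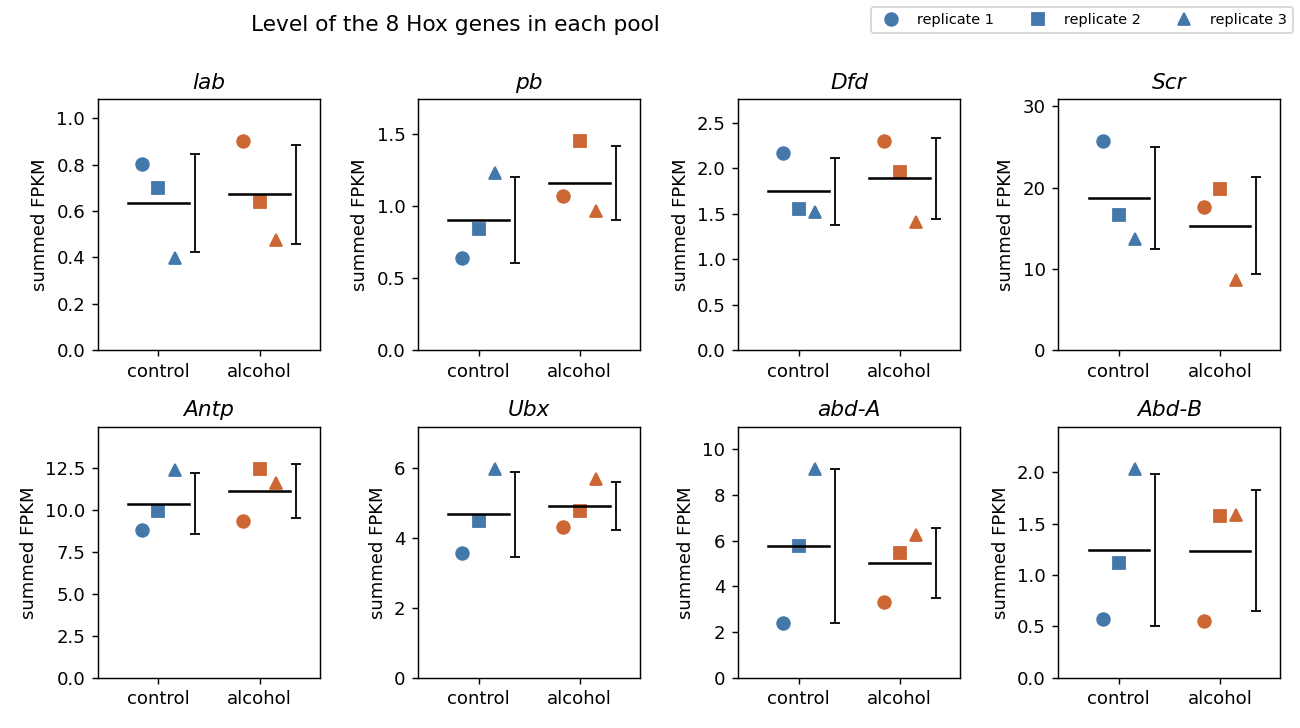
Summed FPKM of each Hox gene in the 3 control pools (blue) and the 3 alcohol pools (orange), one panel per gene, each with its own vertical axis starting at 0. Horizontal lines are group means, the bars beside them show 1 SD (n = 3), and the symbol gives the replicate number. The groups overlap in all 8 panels, and for Antp, Ubx, abd-A and Abd-B the replicate 1 pool (circle) is the lowest of both groups.

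The groups were compared with limma's moderated test on log2(FPKM + 1), with Ballgown's library-size covariate in the model. A feature was called when its unadjusted p was under 0.05 and its log2 fold change on that scale exceeded 1 in size. This is a 2-fold change of FPKM + 1, which for features near or below 1 FPKM takes a larger change of FPKM. Adjusted p-values are Benjamini-Hochberg values over all features tested. Only features whose FPKM had a variance above 1 across the pools were tested, and of the 8 gene sums these were Scr, Antp and abd-A. The others are given from the same fit without that filter.

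None of the 3 Hox gene sums tested was called, where 1.36 percent of all gene sums tested were. None had an unadjusted p under 0.05, as 3.42 percent of all did, and the ordinary F-test without variance moderation called none of them either, where it called 0.582 percent of all. None of the 3 had groups without overlap, where 6.21 percent of all did. Without the filter none of the 8 was called and none had an unadjusted p under 0.05, while 0.603 percent of all gene sums were called and 4.34 percent had such a p. For lab and pb, with control means of 0.635 and 0.904 FPKM, a decrease of the called size was out of reach in the plain difference of log2(FPKM + 1). Their not being called therefore says little about a decrease. The pools of the 2 groups overlapped for all 8 genes, where 6.36 percent of all gene sums without the filter did not. The median log2 fold change was -0.06 over the 8 genes without the filter, 3 of them with a positive and 5 with a negative value, and -0.01 over all gene sums in that fit. The tally turned over without the covariate, to 6 positive and 2 negative values with a median of 0.05 beside -0.04 over all gene sums, so the fold changes below depend on that term.

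**Figure D2:**
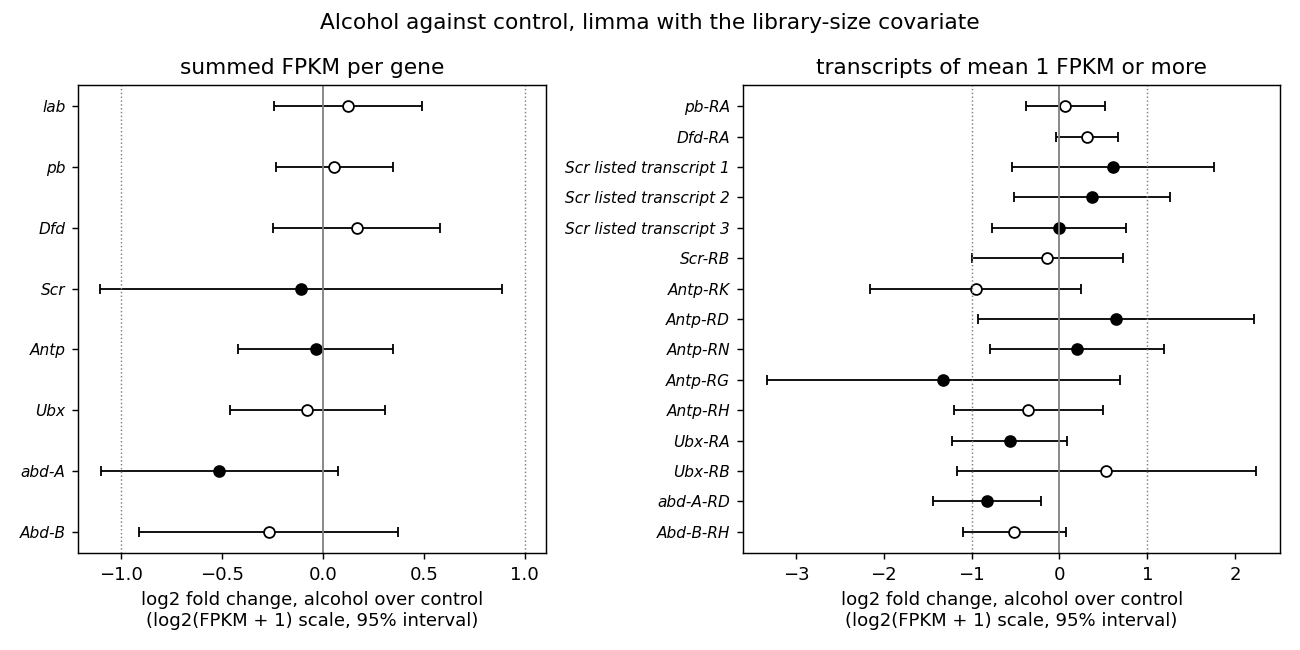
Log2 fold changes of alcohol over control on the log2(FPKM + 1) scale, for the 8 gene sums (left) and for the 15 Hox transcripts with a mean of 1 FPKM or more in either group (right). Bars are 95% intervals, filled points passed the variance filter and open points come from the fit without it. Dotted lines mark a 2-fold change of FPKM + 1, which for low genes is a larger change of FPKM. The 95% intervals of all 8 gene sums include 0.

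Of the Antennapedia complex genes lab had the lowest level. This gene, which is needed in the embryo for neurons of the posterior brain, had 0.805, 0.699 and 0.399 FPKM in control pools and 0.901, 0.637 and 0.477 FPKM in alcohol pools. The groups overlapped over most of their range, with the replicate 3 pool lowest in each. Its group means were 0.635 ± 0.210 and 0.672 ± 0.214 FPKM (SD, n = 3), and its log2 fold change was 0.13 (SE 0.14, limma adjusted p = 1.0 without the filter).

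pb, which specifies the adult mouthparts, had 0.642, 0.839 and 1.230 FPKM in control pools and 1.066, 1.447 and 0.963 FPKM in alcohol pools. The highest pool was an alcohol pool and the lowest a control pool, but the groups overlapped. The means were 0.904 ± 0.299 and 1.16 ± 0.255 FPKM (SD, n = 3), a ratio of 1.28 with an exact two-sided permutation p of 0.4, where 0.1 is the smallest that 3 pools against 3 can give. With the covariate the log2 fold change of pb was 0.06 (95% interval -0.23 to 0.35).

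Dfd, which specifies mandibular and maxillary segments and is also needed for the corpora allata of the ring gland, had 2.169, 1.557 and 1.516 FPKM in control pools and 2.299, 1.959 and 1.412 FPKM in alcohol pools. The replicate 1 pool was the highest of each group and the highest and lowest values of all were both in the alcohol group. The means were 1.75 ± 0.366 and 1.89 ± 0.448 FPKM (SD, n = 3), with a log2 fold change of 0.17 (95% interval -0.25 to 0.58). Dfd has a single listed transcript, so its sum does not depend on how reads were divided among transcripts.

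Scr, the gene of the labial and first thoracic segments, is also required in the embryo to form the salivary gland and the prothoracic gland, the part of the ring gland that makes ecdysone. It had 25.713, 16.654 and 13.655 FPKM in control pools and 17.600, 19.789 and 8.580 FPKM in alcohol pools. The highest pool was control replicate 1 and the lowest alcohol replicate 3, a 2.997-fold range that ran through both groups. The means were 18.7 ± 6.28 and 15.3 ± 5.94 FPKM (SD, n = 3), and the exact permutation p was 0.6. The log2 fold change of Scr was -0.11, with a 95% interval of -1.11 to 0.89, the widest of the 8 genes, so that even a 2-fold difference in the downward direction lies within it (limma adjusted p = 0.999).

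Antp, which specifies thoracic segments, was the steadiest of the 8, with a highest pool only 1.41 times the lowest. It had 8.832, 9.941 and 12.421 FPKM in control pools and 9.341, 12.474 and 11.647 FPKM in alcohol pools. Each group had its lowest value in the replicate 1 pool and the groups overlapped almost entirely. The means were 10.4 ± 1.84 and 11.2 ± 1.62 FPKM (SD, n = 3), and the log2 fold change was -0.04 with the covariate (95% interval -0.42 to 0.35, limma adjusted p = 0.999) and 0.10 without it.

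In the bithorax complex, Ubx specifies the third thoracic and first abdominal segments. It had 3.584, 4.492 and 5.990 FPKM in control pools and 4.317, 4.779 and 5.682 FPKM in alcohol pools. The alcohol values all lay between the lowest and the highest control pool. The means were 4.69 ± 1.22 and 4.93 ± 0.695 FPKM (SD, n = 3), with a log2 fold change of -0.08 with the covariate (95% interval -0.46 to 0.31) and 0.07 without it.

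abd-A, which specifies most abdominal segments and, in the larval ventral nerve cord, triggers the death of abdominal neuroblasts, had the largest fold change of the 8 with the covariate but not without it. It had 2.410, 5.789 and 9.154 FPKM in control pools and 3.325, 5.471 and 6.267 FPKM in alcohol pools. The highest and the lowest pool were both controls, 3.80-fold apart, and the alcohol pools lay between them. The means were 5.78 ± 3.37 and 5.02 ± 1.52 FPKM (SD, n = 3) and the exact permutation p was 0.9. The log2 fold change with the covariate was -0.51 (95% interval -1.10 to 0.07, unadjusted p = 0.0749, limma adjusted p = 0.999), while the plain difference of the group means of log2(FPKM + 1) was -0.07. The covariate was highest in control replicate 1, at 23842 against 22105 to 22613 in the other 5 pools, and that is the pool in which abd-A was lowest. Quantile normalization without the covariate turned the direction, to 0.42.

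Abd-B, the gene of the last abdominal segments, had 0.571, 1.119 and 2.034 FPKM in control pools and 0.555, 1.571 and 1.583 FPKM in alcohol pools. The lowest values of the groups were alike and the highest was a control pool. The group means were the same to within 1 percent of each other on the FPKM scale, at 1.24 ± 0.739 and 1.24 ± 0.590 FPKM (SD, n = 3), and the log2 fold change was -0.27 with the covariate (95% interval -0.91 to 0.38) and 0.01 without it.

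The order of the 8 genes by level was only partly the same in each pool. FPKM is per length, so levels of different genes can be set side by side. Among neighbours in that order, Antp was above abd-A in all 6 pools, by 1.36 to 3.66 times, and Ubx was above Dfd in all 6, by 1.65 to 4.02 times. The other neighbours changed places in at least 1 pool. Scr was above Antp in 5 of 6 pools, with alcohol replicate 3 as the exception at a ratio of 0.737, abd-A was above Ubx in 4 of 6 pools, Dfd above Abd-B and Abd-B above pb each in 4 of 6, and pb above lab in 5 of 6. The sum over the 8 genes was nearly constant by comparison, between 36.6 and 48.1 FPKM.

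The make-up of that sum shifted among the pools of each group. The bithorax complex made up 14.7, 27.7 and 37.0 percent of the summed Hox FPKM in control pools and 20.8, 24.6 and 37.0 percent in alcohol pools. In both groups its share was lowest in replicate 1 and highest in replicate 3, and the group means were close, at 26.5 ± 11.2 and 27.4 ± 8.46 percent (SD, n = 3). Scr alone made up 57.5 percent of the Hox sum in control replicate 1 and 23.4 percent in alcohol replicate 3. The ratio of abd-A to Scr in a pool spanned 0.0937 to 0.730, a 7.79-fold range, while that of abd-A to Abd-B spanned 3.48 to 5.99, a 1.72-fold range, and that of Ubx to Antp 0.383 to 0.488, a 1.27-fold range.

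**Figure D3:**
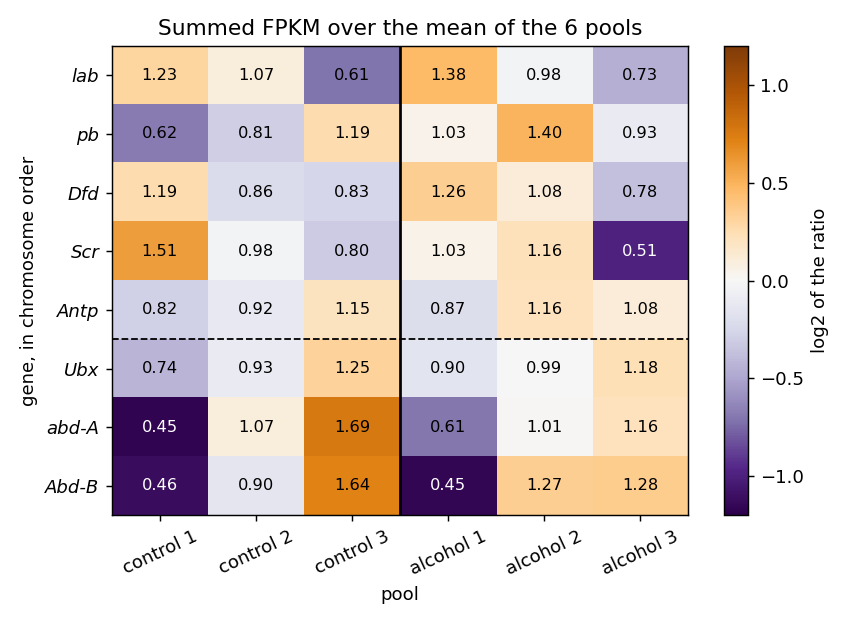
Summed FPKM of each Hox gene in each pool, divided by its mean over the 6 pools, with genes in their order on the chromosome and the dashed line between the Antennapedia complex (above) and the bithorax complex (below). Colours give the log2 of the ratio and numbers the ratio itself. abd-A and Abd-B run from 0.45 in control replicate 1 or alcohol replicate 1 to 1.69 and 1.64 in control replicate 3, while lab and Scr are high in control replicate 1.

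Across the 6 pools Antp and the bithorax genes were high together, and lab, Dfd and Scr tended to be high in the other pools. On the log2(FPKM + 1) scale the 6 pairs among Antp, Ubx, abd-A and Abd-B had Pearson correlations of 0.85 to 0.95 (Spearman 0.66 to 0.94), among them 0.93 for Ubx with abd-A and 0.94 for abd-A with Abd-B. The correlation of lab with Abd-B was -0.94 (Spearman -1.0), that of Dfd with abd-A -0.84 (Spearman -0.89) and that of lab with Dfd 0.85 (Spearman 0.89). Scr was at 0.69 with lab and 0.78 with Dfd. pb was less clearly placed, at 0.80 with Antp, 0.58 to 0.62 with the bithorax genes and -0.40 to -0.10 with lab, Dfd and Scr. The pair of pools farthest from the median of the first-named gene was then left out, which also narrows the range of that gene. This took the Ubx and abd-A value to 0.69, abd-A and Abd-B to 0.77, lab and Abd-B to -0.85 and Dfd and abd-A to -0.46. It took Dfd and Abd-B from -0.79 to -0.06, Dfd and Antp from -0.60 to 0.34 and Scr and Antp from -0.54 to -0.16, so these values were not kept in the pools that remained. With deviations from the group means in place of the levels, Ubx and abd-A were at 0.96, abd-A and Abd-B at 0.94, lab and Abd-B at -0.95 and Dfd and abd-A at -0.84. On that scale Dfd and Abd-B were at -0.81, Dfd and Antp at -0.69 and Scr and Antp at -0.50. These are descriptions over 6 points that share their libraries and depth.

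The replicate 1 pool was the lowest of its group in both groups for 4 of the 8 genes (Antp, Ubx, abd-A and Abd-B), where 3.98 percent of the 9956 genes with a mean of at least 1 FPKM showed that pattern. It was the highest in both groups for Dfd, where 15.8 percent of those genes had that pattern, and for lab, whose mean is below 1 FPKM. The noncoding RNA iab8 of the bithorax complex followed the first pattern at a low level, with 0.235, 0.305 and 0.382 FPKM in control pools and 0.218, 0.369 and 0.424 FPKM in alcohol pools. The noncoding RNA bxd of the same complex did not, with 0.204, 0.145 and 0.208 FPKM in control pools and 0.102, 0.117 and 0.393 FPKM in alcohol pools. The replicate 1 pools were also the shallowest of their groups, at 3257 and 2720 aligned megabases, and the part of depth in these patterns was not tested.

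Marker levels moved with the Hox genes from pool to pool. Scr followed the ring gland markers (5 of 6 found: phm, dib, sad, nvd and Akh), with a Pearson correlation of 0.93 (Spearman 0.89) between log2 levels over the 6 pools. Those markers summed to 225, 173 and 175 FPKM in control pools and 180, 239 and 117 FPKM in alcohol pools. Alcohol replicate 3 was the lowest for their sum, as for Scr. Akh was an exception, at 36.12 FPKM in alcohol replicate 3 and lowest in control replicate 3, at 32.34 FPKM. The ratio of Scr to phm, which encodes an ecdysone-synthesis enzyme of the prothoracic gland, spanned 0.310 to 0.510, a 1.64-fold range against the 2.997-fold range of Scr itself.

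The bithorax genes went against the sum of the salivary gland markers, most of which was Sgs7. The Pearson correlation with that sum was -0.91 for Ubx (Spearman -1.0), -0.90 for abd-A (Spearman -0.94) and -0.85 for Abd-B (Spearman -0.94). It was 0.88 for lab and 0.58 for Scr. The marker ng1, a small part of the sum, differed mainly between the groups. It had 5.11, 3.42 and 0.87 FPKM in control pools and 91.98, 49.41 and 58.47 FPKM in alcohol pools. Imaginal disc markers (8 of 8 found) summed to 106 to 128 FPKM in control pools and 96.6 to 116 FPKM in alcohol pools. Their sum had correlations of 0.84 with Scr, -0.83 with Antp and -0.88 with Ubx. Not all of its members followed it: vg and nub were highest in alcohol replicate 3, at 3.61 and 7.76 FPKM, the pool in which Scr was lowest. Single markers were not correlated with the Hox genes. pb followed the neuronal markers, at 0.94 (Spearman 0.94), and went against the fat body markers, at -0.92 (Spearman -0.94). The part of other tissues in the Hox levels was not tested.

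The trunk markers tsh and tio, which mark the ventral nerve cord as against the brain lobes, varied little. They summed to 37.6 to 42.2 FPKM in control pools and 33.9 to 38.9 FPKM in alcohol pools. abd-A divided by tsh still ranged from 0.0885 to 0.303, a 3.43-fold range close to the 3.80-fold range of abd-A alone. Its means were 0.197 ± 0.107 in control pools and 0.193 ± 0.0462 in alcohol pools (SD, n = 3).

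At the level of transcripts, 25 of the 42 listed Hox transcripts were above 0 in at least 1 pool and 17 were listed at 0 in every pool. Transcript names are those of FlyBase, found by matching the positions and exons to the annotation: 36 matched 1 annotated transcript and 6 matched several with identical exons. Of the 42, 32 have no exon base of their own, so their FPKM rests on how the reads were divided among overlapping transcripts. The 8 transcripts that passed the variance filter included none that was called, where 3.85 percent of all transcripts tested were, and 1 had an unadjusted p under 0.05, as 4.76 percent of all did. None of the 8 had groups without overlap, where 7.72 percent of all did. The ordinary F-test called none of the 8, where it called 1.95 percent of all. Without the filter none of the 25 was called, against 1.68 percent of all transcripts, and 3 had an unadjusted p under 0.05, as 4.79 percent of all did. Only 15 of them reached a mean of 1 FPKM in either group. The rest were too low in control pools for a decrease of the called size in the plain difference of log2(FPKM + 1). The groups did not overlap for 1 of the 25, where 7.39 percent of all transcripts in that fit did not. The authors listed Antp and Ubx among their down-regulated genes, with no transcript at a q-value under 0.05. In the fits above no transcript of either gene was called, so the results differ for these genes, and the cause was not tested. The fit here was limma's and not the authors' own Ballgown run. After rescaling to TPM, Antp-RK and Antp-RG were called lower, at -1.92 and -2.36, which is the authors' direction for Antp. No Ubx transcript was called lower under any alternative run.

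**Figure D4:**
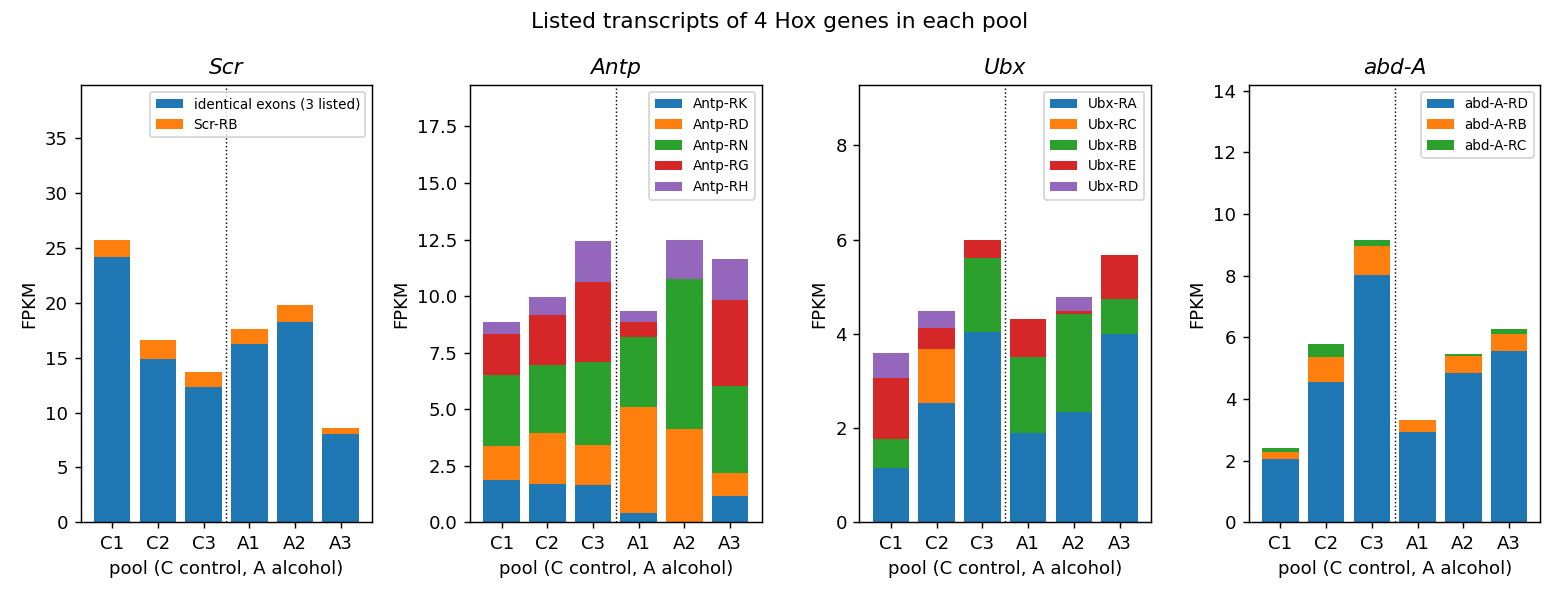
FPKM of the listed transcripts of Scr, Antp, Ubx and abd-A in each pool, stacked to the gene sum (C1 to C3 control, A1 to A3 alcohol). The 3 listed Scr transcripts with identical exons are drawn as 1 block. Antp-RK and Antp-RG, the transcripts without a 39-base exon, are smallest in alcohol replicates 1 and 2, while the whole Antp bars of the groups overlap.

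For Scr, 3 listed transcripts have identical exons, so reads cannot divide their FPKM and only their sum is described. They made up 89.4 to 94.2 percent of Scr in the 6 pools, with means of 91.2 ± 2.44 percent in control pools and 92.9 ± 1.10 percent in alcohol pools (SD, n = 3). The rest was Scr-RB, with a start of its own, at 1.540, 1.760 and 1.331 FPKM in control pools and 1.370, 1.508 and 0.499 FPKM in alcohol pools. Alcohol replicate 3 was the low pool here, as it was for Scr as a whole.

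Antp is transcribed from a distal (P1) and a proximal (P2) promoter, and its listed transcripts differ further by a 39-base exon and by a splice site that lengthens an exon by 12 bases. Transcripts from P1 made up 55.9, 52.1 and 58.1 percent of Antp in control pools and 40.2, 53.1 and 65.9 percent in alcohol pools. The alcohol pools lay on both sides of the control pools, with means of 55.4 ± 3.08 and 53.1 ± 12.8 percent (SD, n = 3). The 6 transcripts with the 12-base extension were listed at 0 in every pool.

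The 39-base exon varied most. Transcripts that hold it made up 58.1, 60.9 and 58.2 percent of Antp in control pools and 88.4, 100 and 57.2 percent in alcohol pools. Alcohol replicates 1 and 2 were above every control pool and alcohol replicate 3 was below them all, so the groups overlapped. The transcripts with the exon sum to means of 6.14 ± 1.05 and 9.13 ± 3.001 FPKM, and those without it to 4.26 ± 0.814 and 2.02 ± 2.62 FPKM (control and alcohol, SD, n = 3).

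Among single Antp transcripts, Antp-RK (P2, without the exon) was the one whose groups did not overlap. It had 1.871, 1.675 and 1.637 FPKM in control pools and 0.418, 0.000 and 1.151 FPKM in alcohol pools, where 0.000 is a value listed at 0 for a transcript with no base of its own. Every alcohol pool was below every control pool, with an exact permutation p of 0.1, the smallest possible. It did not pass the variance filter, and without the filter its log2 fold change was -0.95 (95% interval -2.15 to 0.25, limma adjusted p = 1.0). After rescaling to TPM it was called at -1.92. That rescaling gives every pool the same total, but it also raises all values against the added 1 and recomputes the covariate and the filter.

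Antp-RG (P1, without the exon) had 1.828, 2.213 and 3.556 FPKM in control pools and 0.666, 0.000 and 3.829 FPKM in alcohol pools. Alcohol replicates 1 and 2 were the lowest of all and alcohol replicate 3 the highest of all. Its log2 fold change was -1.32 (95% interval -3.33 to 0.69, unadjusted p = 0.149, limma adjusted p = 0.999), and it was called at -1.58 without alcohol replicate 3 and at -2.36 after rescaling to TPM.

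Antp-RD and Antp-RN are the transcripts that add the exon to these forms. Antp-RD (P2) had 1.518, 2.292 and 1.765 FPKM in control pools and 4.694, 4.112 and 1.026 FPKM in alcohol pools, above every control pool in alcohol replicates 1 and 2. Antp-RN (P1) had 3.111, 2.963 and 3.666 FPKM in control pools and 3.086, 6.626 and 3.841 FPKM in alcohol pools, with alcohol replicate 1 inside the control range. Both overlapped between the groups, with log2 fold changes of 0.64 (SE 0.60) and 0.20 (SE 0.38). Antp-RH, which has its own 3′ end, had 0.504, 0.797 and 1.798 FPKM in control pools and 0.477, 1.736 and 1.800 FPKM in alcohol pools, low in both replicate 1 pools. In the test of transcript usage, limma's diffSplice F-test, the unadjusted p of Antp was 0.138 and the adjusted p 0.685, and that of Scr 0.574 and 0.973. The 3 Scr transcripts in this test were those with identical exons, which reads cannot divide. For Scr the test therefore says nothing about usage. None of the 2 Hox genes tested was called, where 0.606 percent of all genes with at least 2 tested transcripts were called at an adjusted p under 0.05, and neither had an unadjusted p under 0.05. Without the variance filter 7 Hox genes could be tested and none was called or had an unadjusted p under 0.05, where 0.589 percent of all were called.

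Ubx makes a family of proteins that differ by a pair of 51-base microexons and by a 27-base element at a splice site, and the form without either microexon is known as the one of the nervous system. Transcripts with both microexons made up 68.4, 66.2 and 74.1 percent of Ubx in control pools and 62.5, 50.3 and 86.6 percent in alcohol pools. The alcohol pools spread to both sides of the controls, with means of 69.6 ± 4.05 and 66.5 ± 18.4 percent (SD, n = 3). Transcripts without a microexon made up 17.4, 0 and 25.9 percent in control pools and 37.5, 43.6 and 13.4 percent in alcohol pools. This share was highest in alcohol replicates 1 and 2, and alcohol replicate 3 was below 2 of the control pools. The listed forms also differ in their 3′ ends. The transcripts with the 27-base element are the same ones that have the longest 3′ end, at 32.1 to 81.7 percent of Ubx. The form with that end and no microexon, Ubx-RF, was listed at 0 in every pool. Microexon shares and 3′ ends therefore cannot be told apart in these values.

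Ubx-RA, with both microexons and the 27-base element, had 1.151, 2.529 and 4.049 FPKM in control pools and 1.893, 2.332 and 3.987 FPKM in alcohol pools. The alcohol pools lay inside the control range, and the exact permutation p was 1.0. Its log2 fold change with the covariate was -0.57 (95% interval -1.22 to 0.09, limma adjusted p = 0.999), and without the covariate it was 0.11. Ubx-RB, with neither the microexons nor the element, had 0.622, 0.000 and 1.553 FPKM in control pools and 1.620, 2.081 and 0.762 FPKM in alcohol pools, which overlapped. Its log2 fold change was 0.54 (95% interval -1.17 to 2.24) without the filter, and it was called at 1.68 when control replicate 3 was left out. None of the 6 listed Ubx transcripts has a base of its own.

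abd-A-RD, which encodes the 330-residue protein, made up 78.7 to 88.8 percent of abd-A, and abd-A-RB, which encodes the 590-residue protein, 8.42 to 13.9 percent. abd-A-RD had 2.064, 4.555 and 8.032 FPKM in control pools and 2.918, 4.835 and 5.565 FPKM in alcohol pools. The alcohol pools lay within the range of the controls, as they did for the gene sum. It was the transcript with an unadjusted p under 0.05 among the 8 tested, with a log2 fold change of -0.83 (SE 0.24, p = 0.0186, limma adjusted p = 0.874), but the plain difference of the group means was -0.01, the exact permutation p was 1.0 and the change missed the 2-fold threshold.

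Without the filter, abd-A-RD, abd-A-RB and Ubx-RA were the 3 transcripts with an unadjusted p under 0.05. abd-A-RB, of a start of its own, had 0.203, 0.805 and 0.936 FPKM in control pools and 0.408, 0.544 and 0.532 FPKM in alcohol pools. Its alcohol values again fell inside the control range, with an exact permutation p of 0.5 and a log2 fold change of -0.45 (SE 0.10, limma adjusted p = 0.888).

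Abd-B makes a morphogenetic (m) form from a proximal start and shorter regulatory (r) forms from distal starts. The transcripts of the m form, of 493 residues, made up 96.5 to 100 percent of Abd-B in control pools and 94.0 to 100 percent in alcohol pools. Abd-B-RH, the m transcript, had 0.571, 1.087 and 1.962 FPKM in control pools and 0.555, 1.571 and 1.489 FPKM in alcohol pools, low in both replicate 1 pools. Of the r forms, Abd-B-RE and Abd-B-RJ were above 0 in at least 1 pool, none of them above 0.049 FPKM.

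For lab, pb and Dfd 1 transcript held nearly all of the sum. lab-RA held 82.5 to 100 percent of lab, pb-RA 90.9 to 100 percent of pb, and Dfd-RA is the single listed transcript of Dfd. The log2 fold changes were 0.20 for lab-RA, 0.07 for pb-RA and 0.31 (95% interval -0.04 to 0.66) for Dfd-RA, all without the filter. The values of Dfd-RA are those of the Dfd sum, and its fold change differs from the 0.17 of the sum because the covariate is computed separately from transcripts and from gene sums. Without the covariate both were 0.07.

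Hox proteins bind DNA together with the homeodomain cofactors Extradenticle (exd) and Homothorax (hth), and zinc-finger proteins such as Teashirt (tsh) act with them in the trunk. Of 6 such genes 5 gene sums were tested. None was called, where 1.36 percent of all gene sums tested were, and none had an unadjusted p under 0.05, as 3.42 percent of all did. There were 1 higher and 4 lower values, with a median log2 fold change of -0.21 beside -0.03 over all gene sums tested. exd had 143.070, 96.923 and 147.663 FPKM in control pools and 147.280, 171.799 and 106.985 FPKM in alcohol pools. Both groups had 1 low pool and overlapped. The level of hth was at 60.0 ± 5.18 and 56.7 ± 8.24 FPKM and tsh at 28.8 ± 1.48 and 25.7 ± 2.1 FPKM in control and alcohol pools (SD, n = 3).

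Of the 12 transcripts of these genes tested, 1 was called higher and 1 lower, where 3.85 percent of all transcripts were called. The transcript exd-RD had 38.852, 2.476 and 10.135 FPKM in control pools and 54.942, 37.071 and 41.467 FPKM in alcohol pools, a log2 fold change of 3.11 (SE 0.92, limma adjusted p = 0.898), and 1.96 without the covariate. The groups overlapped, since control replicate 1 was above an alcohol pool, and the gene sum of exd had a log2 fold change of 0.14. The transcript tio-RB, of the tsh paralog tiptop, had 0.528, 3.201 and 3.958 FPKM in control pools and 0.049, 1.095 and 1.756 FPKM in alcohol pools, a log2 fold change of -1.86 (SE 0.30, limma adjusted p = 0.514), and -0.80 without the covariate. Its groups overlapped as well, with the replicate 1 pool lowest in each.

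Of 10 genes known as Hox targets in the embryo or larva, among them Dll, dpp, wg and the cell death genes rpr, grim and skl, all 10 were tested. None was called, where 1.36 percent of all gene sums tested were, and none had an unadjusted p under 0.05, as 3.42 percent of all did. Their log2 fold changes had a median of -0.09 beside -0.03 over all gene sums tested, with 1 higher and 9 lower values, and 4 higher and 6 lower without the covariate. The genes of highest mean were ap, at 30.9 ± 3.62 and 29.4 ± 6.31 FPKM, Dll, at 26.2 ± 2.90 and 21.6 ± 1.21 FPKM, and Con, at 23.2 ± 7.99 and 23.0 ± 6.39 FPKM in control and alcohol pools (SD, n = 3). grim, a cell death gene on which abd-A is known to act in neuroblasts, was at 9.71 ± 3.44 and 11.0 ± 3.04 FPKM.

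Of the other genes and noncoding RNAs of the clusters 12 of 13 were found. Ama, a cell adhesion gene of the Antennapedia complex, was the abundant one, at 141 ± 16.1 and 132 ± 11.0 FPKM in control and alcohol pools (SD, n = 3), and the only one tested. It was not called. The others had means below 1 FPKM in both groups, and mir-iab-8 was listed at 0 in every pool. The ELAV family of RNA-binding proteins, which shapes the 3′ ends of Hox mRNAs in neurons, had 2 of 3 genes tested. None of them was called, where 1.36 percent of all gene sums tested were. fne had 113 ± 36 and 107 ± 35.2 FPKM and elav 69.6 ± 15.6 and 66.9 ± 17.5 FPKM.

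For each Hox gene with a mean of at least 1 FPKM, the 2 genes whose log2(FPKM + 1) was most like it over the 6 pools, out of 8247 tested gene sums less the Hox gene itself, were looked up by Pearson correlation. They were SCCRO4 and CG46338 for abd-A (0.98 and 0.97), PIG-M and TORIP for Abd-B (both 0.99), CG7506 and Tgs1 for Ubx (0.99 and 0.97) and CG3860 and TORIP for Antp (0.98 and 0.97). For Scr they were Snx3 and snoRNA:Psi28S-1060 (0.99 and 0.98), for Dfd EbpIII and ru (0.996 and 0.978) and for pb CG42613 and dpr3 (0.99 and 0.98). TORIP stood in the pairs of both Antp and Abd-B. With 6 points such values are common: 62 genes passed 0.95 for pb, 14 for Dfd, 10 for Scr, 8 for Ubx, 6 for abd-A and 5 each for Antp and Abd-B.

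The positions bear on how some of these values were counted. On dm6 the 8 genes span chr3R:6661427-6999228 for the Antennapedia complex members and chr3R:16656623-16972236 for those of the bithorax complex, all on the minus strand except Dfd. Exon bases of Antp overlap those of CG46458 on the same strand, and those of Ubx overlap asRNA:PS4 on the opposite strand. Whether the quantification used the strand is not given in the sources used here, so reads of Ubx and of that antisense RNA cannot be told apart.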

How the data were processed

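RNA was measured in 3 control and 3 alcohol pools, grouped by the sample labels. The authors trimmed reads with Trimmomatic 0.39, aligned them to dm6 with HISAT 2.2.0 and quantified transcripts with StringTie 2.1.4. They deposited FPKM per transcript and pool, with no further normalization. The coverage signal of each transcript that the authors deposited served only to derive aligned bases. No counts were used, so no counting error is given and precision is the spread between pools. A deposited table of the authors' own fold changes, p-values and q-values was not used.

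Members were selected by gene name, and they and the gene lists were chosen with earlier results of these data known. Tests used R 4.3.3 and limma 3.58.1 on log2(FPKM + 1), with treatment and the library-size covariate (the sum of log2(FPKM + 1) over non-zero values below the 75th percentile of the pool, recomputed for gene sums). The pseudocount understates changes of low genes. Transcript usage was tested with diffSplice at an adjusted p under 0.05. Exact two-sided permutation tests ran over the 20 assignments of pools. Fits were run on simulated data as a check of the code only. Its spread was capped and changes were placed only in features above a set level, so low or variable members are not covered. Transcripts were named from Ensembl release 115 by start, end, exon number and length. Transcripts were named in the text if their mean reached 1 FPKM in either group or they were called. Other transcripts are given where they complete a gene's make-up. Tables were handled in Python 3.11.15 (pandas 2.3.3, numpy 2.4.6), permutations in scipy 1.17.1 and figures in matplotlib 3.10.9. Alternatives were no covariate, a replicate block, a pseudocount of 0.1, other filters, TPM, quantile normalization, the ordinary F-test and leaving out each pool. Combinations of no filter with these were added after seeing the data. No sequences are printed.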

Additional observations from a re-analysis of the deposited data

How the results depend on the processing

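No Hox gene sum was called and no Hox gene was called for transcript usage under any alternative run. The number of Hox transcripts called was 0 of 8 tested and became 2 of 12 after rescaling to TPM (Antp-RK and Antp-RG), where 4.5 percent of all transcripts were called. It was 0 to 1 when 1 pool was left out, with Antp-RG called without alcohol replicate 3, where 4.55 percent of all were. Without the variance filter 25 were tested: 2 were called with TPM (the same Antp-RK and Antp-RG, 2.44 percent of all), 1 with a pseudocount of 0.1 (abd-A-RB, 3.42 percent of all) and 0 to 2 when 1 pool was left out (Ubx-RB without control replicate 3, 3.07 percent of all, and Antp-RK and Antp-RG without alcohol replicate 3, 1.96 percent of all). The number was 0 under the other alternatives.

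Directions of single values were less settled. Of 23 named fold changes 16 changed sign under at least 1 alternative, among them 6 of the 8 gene sums, and the cause was not tested. Members with a variance of 1 or less had fewer alternatives: lab kept its sign in the 13 and Dfd in the 14 run for them, against 28 for Scr, Antp and abd-A. Leaving out 1 pool took the log2 fold change of Scr from -0.32 to 0.28, that of Antp from -0.13 to 0.07 and that of abd-A from -0.72 to -0.35.

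Replicate numbers are shared between the groups, but same-numbered pools did not deviate together, with correlations of -0.01, -0.18 and -0.24 over tested transcripts, and no pool correlated best with its own number. In fits with a replicate block 0 Hox transcripts were called, where 4.6 percent of all were with the covariate and 2.21 percent without it. 0 Hox gene sums were called, where 1.77 and 0.825 percent of all were, and 0 Hox genes for usage. The intervals of Scr and abd-A reached past a 2-fold decrease, so a decrease of that size lies within what 3 pools a group leave undecided. On the log2(FPKM + 1) scale a 2-fold change in FPKM of a low gene is smaller than 1. The narrower intervals of low genes such as lab (-0.24 to 0.49) and Abd-B (-0.91 to 0.38) therefore cannot be read directly as limits on their FPKM.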
